A study of Mus musculus with 9 samples.

Results

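Met and the genes that follow it on mouse chromosome 6 were examined in RNA sequencing of bulk tumour tissue from 3 mouse models of glioblastoma. The set holds the 9 protein-coding genes Met, Capza2, St7, Wnt2, Asz1, Cftr, Cttnbp2, Lsm8 and Ankrd7, of 46517 annotated genes in the count tables. They lie between 17463800 and 18879586 on chromosome 6 (GRCm38), a stretch of 1416 kb. The 9 genes were chosen by their CPM (counts per unit of library size, scaled alike in all libraries), since the run was high in single libraries of 2 models, and their levels and ratios are given below as a description, with no test.

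Each model has 3 libraries and is named for its Cre line. Synapsin-cre carries Cre under the synapsin promoter, which is active in neurons. NG2-creERTM carries a tamoxifen-activated Cre under the promoter of Cspg4, active in oligodendrocyte precursors and pericytes, and Nestin-creERT2 carries a tamoxifen-activated Cre under the nestin promoter, which neural stem cells and progenitors use. All 9 samples are glioblastoma tissue of mixed strain background, and the labels name no driver allele, age or tumour site. The libraries of a model were numbered here, and no label states that each is another animal. The p-values below set differences between models against the spread of these samples, part of which may be technical. The libraries held from 23557398 to 41099967 counts in genes (median 34742585). Glial tumour markers such as Gfap, Olig2, Sox2 and Pdgfra were present in every library, with a summed level of 3189 to 7975 CPM (scaled here with TMM size factors) over 10 markers. Synapsin-cre library 1 stood apart by its neuronal genes, with 8078 CPM summed over 10 neuron markers, against 51.0 to 1050 CPM in the other 8 libraries. That library also had the lowest Olig2 (39.0 CPM), Sox2 (49.6 CPM) and Pdgfra (128 CPM) of the 9. Its sum of glial tumour markers, 4746 CPM, was mostly Gfap (4023 CPM). It set the lower end of several ranges given below, such as those of Capzb, Cav1 and Ptprz1.

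Met encodes the receptor tyrosine kinase for hepatocyte growth factor. When the ligand binds, the receptor pairs with another copy and recruits adaptors such as Gab1 and Grb2, which pass the signal to the Ras and ERK cascade, to phosphoinositide 3-kinase and to Stat3. MET is known in human gliomas for promoting growth, invasion and resistance to treatment. The genes beside it have unrelated functions, in actin capping, Wnt signalling, germ cells, ion transport, synapses and RNA processing.

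The promoters of 4 of the genes show how different the starts of neighbouring genes in the run are. RefSeq start sites matched 8 of the 9 genes. Ankrd7 was not matched. Each sequence below is the part of the 250 bases before the RefSeq start that lies outside the exons of the GENCODE annotation. It is given on the coding strand and read from 5′ to 3′ (RefSeq, GRCm38.p6). In GENCODE Capza2 begins at 17636234, so its stretch below lies within the annotated gene and not before it. Capitals mark matches to the GC box GGGCGG, on either strand. Met is the first gene of the run, Capza2 the one with the highest mean level over the 9 libraries, Asz1 a germ cell gene near 0 in most libraries, and Lsm8 a gene at which the 2 high libraries part. Their positions are chr6:17463707-17463799 (plus strand) for Met, chr6:17636760-17636982 (plus) for Capza2, chr6:18109062-18109311 (minus) for Asz1 and chr6:18848385-18848578 (plus) for Lsm8.
Met: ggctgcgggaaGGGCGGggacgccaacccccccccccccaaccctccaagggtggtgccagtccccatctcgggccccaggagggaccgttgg
Capza2: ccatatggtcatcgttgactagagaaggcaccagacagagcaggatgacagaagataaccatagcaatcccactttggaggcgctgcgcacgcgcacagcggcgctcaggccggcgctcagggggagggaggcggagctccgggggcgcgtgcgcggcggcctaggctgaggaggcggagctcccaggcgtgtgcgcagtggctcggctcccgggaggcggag
Asz1: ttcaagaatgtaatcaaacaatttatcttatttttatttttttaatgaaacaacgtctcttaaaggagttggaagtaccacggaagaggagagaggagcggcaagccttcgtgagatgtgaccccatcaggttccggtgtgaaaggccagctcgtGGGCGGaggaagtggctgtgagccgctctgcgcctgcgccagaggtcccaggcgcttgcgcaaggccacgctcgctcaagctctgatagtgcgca
Lsm8: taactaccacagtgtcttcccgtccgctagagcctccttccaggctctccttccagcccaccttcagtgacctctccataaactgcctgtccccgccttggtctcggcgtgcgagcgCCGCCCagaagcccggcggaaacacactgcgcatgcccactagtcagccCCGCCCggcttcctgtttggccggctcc

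Over the full windows of 250 bases, GC content was 74% for Met, 70.4% for Capza2, 52% for Asz1 and 63.6% for Lsm8, against a median of 52.4% over all 32851 RefSeq starts. GC boxes numbered 3 for Met, 0 for Capza2, 1 for Asz1 and 2 for Lsm8. At least 1 GC box stood in 32.7% of all windows. Among the other members, Cftr had 6 matches, of which 3 overlap each other, Cttnbp2 had 2, Wnt2 had 1 and the 3 starts of St7 had 0. Met was the member with an AP-1 match (TGANTCA, which reads the same on both strands up to its middle base), 1 in its window, in the part that overlaps annotated exon. AP-1 matches stood in 6.75% of all windows. No member had the cyclic AMP response element TGACGTCA, which stood in 1.55% of all windows. These are matches of letters in a window and show no binding.

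Synapsin-cre library 2 and NG2-creERTM library 3 each held far more RNA of the run than any other library. The 9 genes took up 2.32% of the counts in genes in Synapsin-cre library 2 (95% Wilson interval 2.317 to 2.327%) and 2.77% in NG2-creERTM library 3 (2.766 to 2.776%). In the other 7 libraries they took up 0.0309 to 0.0458%. Intervals here cover counting error only. Counts of RNA from bulk tissue cannot tell apart more cells with a gene active, more RNA per cell and more copies of the gene.

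**Figure D1:**
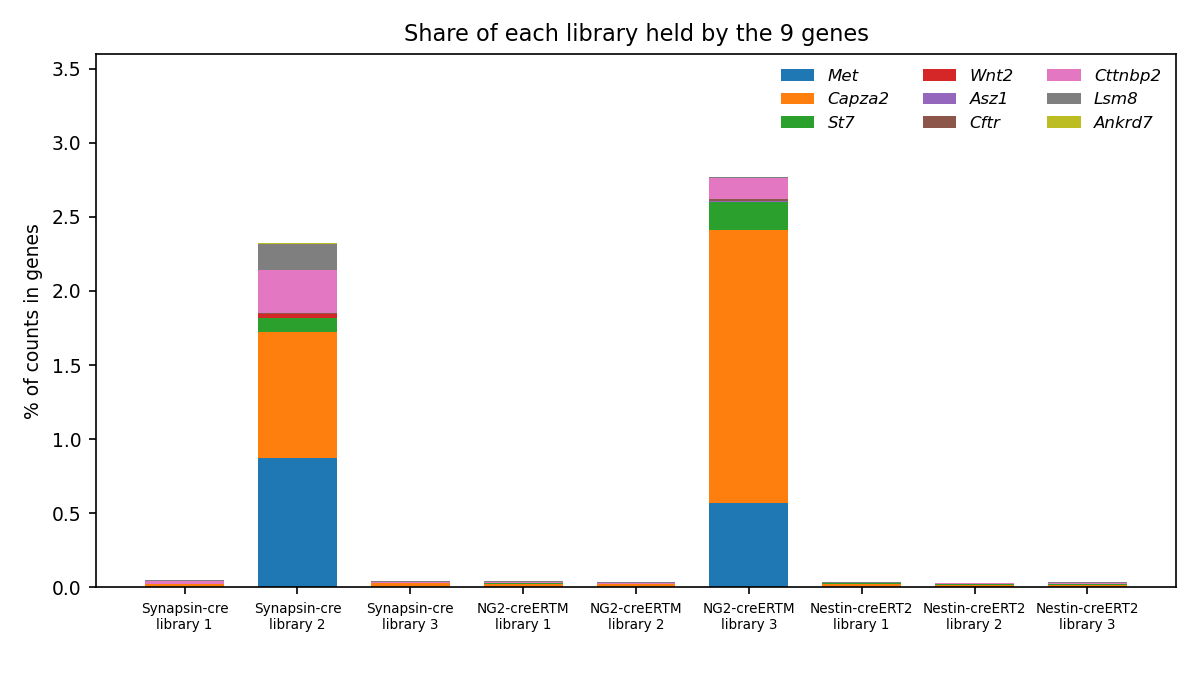
Percent of each library's counts in genes (vertical axis, from 0) held by the 9 genes, stacked by gene, for the 3 libraries of each model. Synapsin-cre library 2 reaches 2.32% and NG2-creERTM library 3 reaches 2.77%, and the other 7 bars lie between 0.0309 and 0.0458%.

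Met had 40.1, 9037 and 24.5 CPM in Synapsin-cre libraries 1, 2 and 3. It had 9.26, 26.9 and 5707 CPM in NG2-creERTM libraries 1, 2 and 3, and 20.0, 11.7 and 4.34 CPM in Nestin-creERT2. Within Synapsin-cre and within NG2-creERTM, a single library was thus far above its 2 companions, while the 3 Nestin-creERT2 libraries overlapped the lower libraries of the other models. The mean in Synapsin-cre was 3034 ± 5199 CPM, in NG2-creERTM 1914 ± 3284 CPM and in Nestin-creERT2 12.0 ± 7.83 CPM (SD, n = 3 each). Without Synapsin-cre library 2 the first of these means was 32.3 CPM, and without NG2-creERTM library 3 the second was 18.1 CPM. Each of these means was set by 1 library. Against its median in the other 8 libraries, with 0.5 CPM added to each value, Met was 397-fold higher in Synapsin-cre library 2, the largest such ratio among the 14004 genes with a mean of at least 2 CPM. The same ratio was 251-fold in NG2-creERTM library 3. By CPM it ranked 2nd of all genes in Synapsin-cre library 2 and 4th in NG2-creERTM library 3.

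Capza2, which encodes an alpha subunit of the protein that caps the fast-growing end of actin filaments, begins 172 kb after the start of Met. It had 157, 8840 and 270 CPM in Synapsin-cre libraries 1, 2 and 3, against 231, 174 and 18564 CPM in NG2-creERTM and 196, 160 and 176 CPM in Nestin-creERT2. Capza2 was the gene with the highest CPM of all in NG2-creERTM library 3 and the 3rd in Synapsin-cre library 2. Against its median in the other 8, its log2 ratio was 5.57 in Synapsin-cre library 2 and 6.64 in NG2-creERTM library 3. Unlike Met, Capza2 had a substantial level in all 9 libraries, and its level was higher in NG2-creERTM library 3 than in Synapsin-cre library 2. The other subunits of the capping protein did not show such a step. Capzb, the beta subunit, ranged from 155 to 287 CPM over the 9 libraries, with 208 CPM in Synapsin-cre library 2 and 207 CPM in NG2-creERTM library 3. Capza1, the other broadly used alpha subunit, had 65.1 CPM in Synapsin-cre library 2 and 61.8 CPM in NG2-creERTM library 3, within the 20.9 to 102 CPM of the other 7.

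St7 follows, a gene named for suppression of tumorigenicity in human studies. Its levels were 23.9, 1009 and 28.7 CPM in Synapsin-cre libraries 1, 2 and 3, 30.7, 23.6 and 1890 CPM in NG2-creERTM, and 30.6, 31.2 and 22.9 CPM in Nestin-creERT2. In the 7 other libraries St7 varied little (22.9 to 31.2 CPM), so the high values stood well outside that range. Its paralog St7l, on another chromosome, ranged from 22.5 to 52.5 CPM, with 31.6 CPM in Synapsin-cre library 2 and 35.4 CPM in NG2-creERTM library 3.

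Wnt2 encodes a secreted ligand of the Wnt pathway. It had 0.18, 242 and 0.78 CPM in Synapsin-cre libraries 1, 2 and 3, against 0.48, 0.078 and 26.4 CPM in NG2-creERTM and 10.8, 0.39 and 0.74 CPM in Nestin-creERT2. Wnt2 was thus very high in Synapsin-cre library 2 and lower by 9.19-fold in NG2-creERTM library 3, where it was still the second highest of the 9 libraries. Nestin-creERT2 library 1, the third, also held genes of the choroid plexus, the tissue that makes cerebrospinal fluid. Its 8 choroid plexus markers summed to 6090 CPM, against 6.10 to 414 CPM in the other 8 libraries, and the defining marker Ttr had 5695 CPM there. In Synapsin-cre library 2 and NG2-creERTM library 3 the 8 markers summed to 27.3 and 64.6 CPM, with 1 of 8 at 0 in each. The marker Aqp1 made up most of the sum in Synapsin-cre library 1 (408 of 414 CPM) and in NG2-creERTM library 3 (56.3 CPM). Aqp1 had 17.7 CPM in Nestin-creERT2 library 1. The part of choroid plexus in the level of Wnt2 was not tested. The related ligand Wnt2b stayed between 0.13 and 1.16 CPM in all 9 libraries.

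Asz1 encodes a germ cell protein needed for the piRNA pathway in the testis. It had 0, 19.7 and 0.12 CPM in Synapsin-cre libraries 1, 2 and 3, against 0, 0.026 and 48.7 CPM in NG2-creERTM and 0, 0 and 0.071 CPM in Nestin-creERT2. In counts, Asz1 had 714 in Synapsin-cre library 2 and 1964 in NG2-creERTM library 3, and at most 4 in any of the other 7 libraries. The gene was therefore detected almost nowhere except in these libraries. Of 13 germ cell markers, 7 were at 0 in Synapsin-cre library 2, with a sum of 3.20 CPM, within the 2.19 to 7.67 CPM of the other libraries apart from NG2-creERTM library 3. Their sum was 29.8 CPM in NG2-creERTM library 3, made up mainly of Piwil2 (18.2 CPM) and Tdrd1 (10.1 CPM), both of the piRNA pathway, and 5 of 13 were at 0, among them the sperm chromatin genes Prm1, Prm2 and Tnp1. Their part in the level of Asz1 was not tested.

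Cftr encodes the chloride channel of epithelia that is defective in cystic fibrosis. It had 2.04, 95.5 and 1.41 CPM in Synapsin-cre libraries 1, 2 and 3, against 1.02, 1.10 and 93.5 CPM in NG2-creERTM and 0.62, 0.75 and 1.12 CPM in Nestin-creERT2. Of the 7 genes raised in both libraries, Cftr was the one with nearly the same level in each (ratio 1.02). The summed level of epithelial markers did not follow it. The 10 markers, among them Epcam, Cdh1 and the keratins Krt8 and Krt18, summed to 10.2 CPM in Synapsin-cre library 2 and 11.5 CPM in NG2-creERTM library 3, within the 3.30 to 27.6 CPM of the other 7 libraries. In NG2-creERTM library 3 the epithelial regulators Grhl2 (1.76 CPM) and Esrp1 (0.87 CPM) were above the 0 to 0.60 and 0.028 to 0.31 CPM of the other 7, and the median log2 ratio of the list, 0.27, was the highest of the 9 libraries. The part of epithelial cells in the level of Cftr was not tested.

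Cttnbp2 encodes a neuronal partner of the actin regulator cortactin that is found in dendritic spines. It had 242, 2979 and 27.3 CPM in Synapsin-cre libraries 1, 2 and 3, against 77.4, 43.7 and 1473 CPM in NG2-creERTM and 37.4, 48.8 and 73.4 CPM in Nestin-creERT2. The third highest level was that of Synapsin-cre library 1, the library rich in neuronal genes. In Synapsin-cre library 2 and NG2-creERTM library 3 the 10 neuron markers summed to 216 and 215 CPM. These sums lay below the 707 to 1050 CPM of the Nestin-creERT2 libraries and above the 72.6 CPM of Synapsin-cre library 3 and the 67.4 and 51.0 CPM of NG2-creERTM libraries 1 and 2. The part of neurons in the level of Cttnbp2 was not tested. Cttnbp2nl, its paralog, had 298 CPM in Synapsin-cre library 2 and 291 CPM in NG2-creERTM library 3, above the 101 to 189 CPM of the other 7 libraries but far short of the steps within the run. Cttnbp2nl gave an adjusted p of 0.719 for Synapsin-cre minus Nestin-creERT2 and 0.629 for NG2-creERTM minus Nestin-creERT2 by the quasi-likelihood test of edgeR (Benjamini-Hochberg adjusted).

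Lsm8 and Ankrd7, the last genes of the run, were high in Synapsin-cre library 2 alone. Lsm8 encodes a subunit of the nuclear Lsm ring that binds U6 small nuclear RNA in splicing. It had 12.6, 1856 and 60.9 CPM in Synapsin-cre libraries 1, 2 and 3, against 58.8, 52.5 and 62.2 CPM in NG2-creERTM and 30.3, 35.0 and 39.3 CPM in Nestin-creERT2. In NG2-creERTM, library 3 was thus within a few CPM of its companions. The mean of Lsm8 was 643 ± 1051 CPM in Synapsin-cre, 57.8 ± 4.94 CPM in NG2-creERTM and 34.9 ± 4.51 CPM in Nestin-creERT2 (SD, n = 3 each), and 36.7 CPM in Synapsin-cre without library 2. Other subunits of the ring stayed low in Synapsin-cre library 2, with Lsm2 at 21.0 CPM and Lsm4 at 67.4 CPM, within the ranges of the other 7 libraries (9.29 to 56.4 and 29.3 to 131 CPM). Ankrd7, which encodes an ankyrin repeat protein known from testis, had 0, 17.8 and 0.060 CPM in Synapsin-cre libraries 1, 2 and 3. It had 0.060, 0.078 and 0.025 CPM in NG2-creERTM and 0, 0 and 0.14 CPM in Nestin-creERT2. These are 645 counts in Synapsin-cre library 2, 1 count in NG2-creERTM library 3 and at most 6 counts in any other library.

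**Figure D2:**
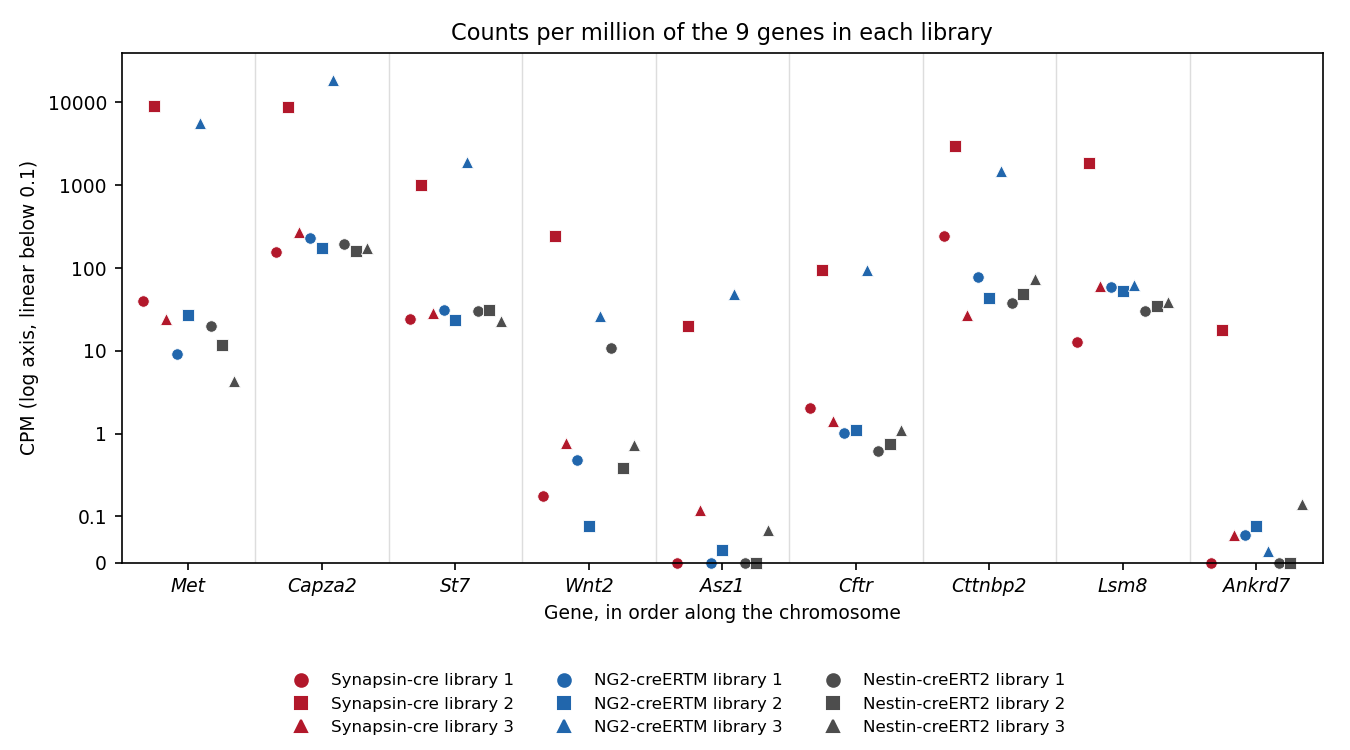
CPM of each of the 9 genes (vertical log axis, linear below 0.1) in each library, with genes in their order along the chromosome, colour for the model and marker shape for the library. Synapsin-cre library 2 stands above the other 7 libraries at all 9 genes, from 17.8 CPM for Ankrd7 to 9037 CPM for Met. NG2-creERTM library 3 does so from Met to Cttnbp2, lies next to the other 7 at Lsm8 with 62.2 CPM, and has 1 count at Ankrd7.

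The size of the step differed among the members and between the high libraries. In Synapsin-cre library 2 the log2 ratios ran from 5.07 for St7 to 8.63 for Met, with Wnt2 next at 7.77 and the other 6 genes between 5.08 and 5.90. Their median was 5.57, against −0.01 over all 14004 genes with a mean of at least 2 CPM. In NG2-creERTM library 3 the ratios were 7.97 for Met, 6.64 for Capza2, 6.58 for Asz1, 5.97 for St7, 5.87 for Cftr, 4.60 for Wnt2 and 4.58 for Cttnbp2. Those of Lsm8 and Ankrd7 were 0.43 and −0.09. The median of all 9 was 5.87, against −0.04 over all genes of that level. The count of members at least 8-fold higher was 9 of 9 in Synapsin-cre library 2, where 0.543% of the 14004 genes were, and 7 of 9 in NG2-creERTM library 3, where 0.707% were. In Nestin-creERT2 library 1 it was 1 of 9, Wnt2, where 0.971% of genes were. In each of the other 6 it was 0, where the share of genes was 4.58% (Synapsin-cre library 1), 0.557% (Synapsin-cre library 3), 0.764% (NG2-creERTM library 1), 0.314% (NG2-creERTM library 2), 0.771% (Nestin-creERT2 library 2) and 0.728% (Nestin-creERT2 library 3). The members were chosen for these values, so the counts are read only as a description. All 9 reached a mean of 2 CPM, but 4 of them did so only through the high libraries. Over the other 7 libraries Wnt2 averaged 1.92 CPM, Cftr 1.15 CPM, and Asz1 and Ankrd7 well below 1 CPM. Asz1 and Ankrd7 were also left out by edgeR's filter on low counts.

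Placed side by side, the high libraries did not share one profile over the run. Capza2, St7 and Asz1 were higher in NG2-creERTM library 3, by 2.10-fold, 1.87-fold and 2.47-fold relative to Synapsin-cre library 2. Met, Cttnbp2, Wnt2 and Lsm8 were higher in Synapsin-cre library 2, by 1.58-fold, 2.02-fold, 9.19-fold and 29.8-fold. Each library was a single sample, so these differences have no replicate check. The order of genes per kilobase of exon was also different. In Synapsin-cre library 2 Capza2 led with 1501 CPM per kb, followed by Met with 1177, Lsm8 with 442 and Cttnbp2 with 337 CPM per kb. Capza2 also led in NG2-creERTM library 3 with 3152 CPM per kb, followed by Met with 743, St7 with 209 and Cttnbp2 with 167 CPM per kb. Asz1 and Cftr stayed low even there, with 6.96 and 12.3 CPM per kb in Synapsin-cre library 2 and 17.2 and 12.0 CPM per kb in NG2-creERTM library 3. On the same scale Met had 0.565 to 5.22 CPM per kb in the other 7 libraries, and Capza2 26.6 to 45.8 CPM per kb.

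Genes on either side of the run were read beside it. Upstream of Met, the caveolae genes Cav1 and Cav2 begin 157 and 183 kb before its start. Cav1 had 84.4 CPM in Synapsin-cre library 2 and 197 CPM in NG2-creERTM library 3, within the 26.9 to 317 CPM of the other 7 libraries. Cav2 had 80.6 CPM in Synapsin-cre library 2 and 134 CPM in NG2-creERTM library 3, within 29.1 to 233 CPM. Tes, a gene of focal adhesions 399 kb before Met, was the highest of the 9 libraries in NG2-creERTM library 3 (35.7 CPM) and next in Synapsin-cre library 2 (19.9 CPM), against 1.52 to 16.2 CPM in the other 7. The step there was much smaller, with log2 ratios of 1.94 in NG2-creERTM library 3 and 1.11 in Synapsin-cre library 2. Downstream, the next annotated protein-coding gene is the potassium channel gene Kcnd2, which begins 3752 kb after the start of Met. Kcnd2 had 40.2 CPM in Synapsin-cre library 2 and 42.8 CPM in NG2-creERTM library 3, within 7.67 to 156 CPM. Ankrd7 ends at 18879586 and Kcnd2 begins at 21215503, so the downstream end of the raised stretch in Synapsin-cre library 2 was not located within that gap. The phosphatase gene Ptprz1, abundant in these tumours, had 1164 CPM in Synapsin-cre library 2 and 1216 CPM in NG2-creERTM library 3, within 408 to 2384 CPM. Wnt16, a Wnt ligand 4824 kb after the start of Met, was an exception in 1 library. It had 13.6 CPM in NG2-creERTM library 3, against 0 to 0.45 CPM in the other 7 and 0.11 CPM in Synapsin-cre library 2. Its neighbour Cped1 had 36.1 CPM there, a little above the 3.58 to 31.0 CPM of the other 7, while Ing3 and Fam3c beside them had 43.4 and 98.7 CPM, against 18.9 to 41.5 and 54.9 to 176 CPM. Over the 707 genes of chromosome 6 outside the run with a mean of at least 2 CPM, the median log2 ratio was −0.30 in Synapsin-cre library 2 and −0.08 in NG2-creERTM library 3, within the −0.35 to 0.36 seen over the 9 libraries.

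**Figure D3:**
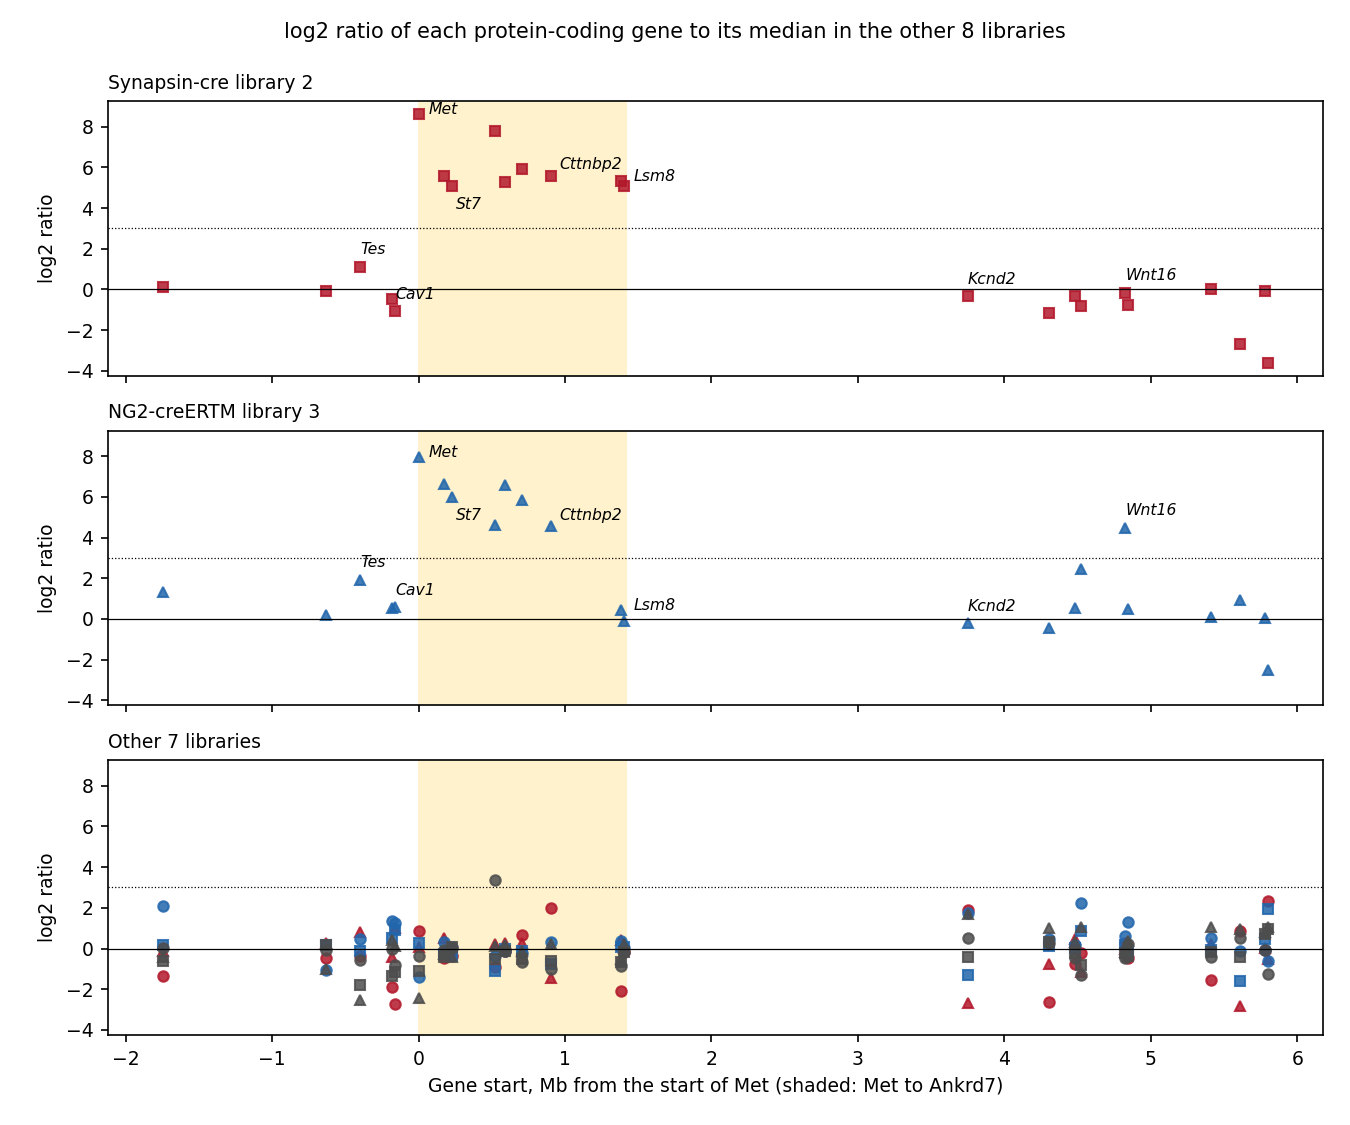
log2 ratio of protein-coding genes to their median in the other 8 libraries (vertical axis) against the distance of the gene's start from that of Met in Mb (horizontal axis). The panels show Synapsin-cre library 2, NG2-creERTM library 3 and the other 7 libraries, with the run shaded and a dotted line at the log2 value of 3 that marks an 8-fold ratio. All 9 genes of the run lie at 5.07 or more in the first panel, 7 of them at 4.58 or more in the second, and Wnt2 in Nestin-creERT2 library 1 is the point above the dotted line in the third.

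Between and within the 9 genes, the annotation places 27 other genes, mostly short RNAs, pseudogenes and unspliced transcripts without a known function. Of these, 20 had over 3 counts in a library. In 13 of the 20 both Synapsin-cre library 2 and NG2-creERTM library 3 were above every one of the other 7 libraries, in 3 only Synapsin-cre library 2 was, in 2 only NG2-creERTM library 3 was, and in 2 neither was. The share of all genes with such a pattern was not counted. These genes lie in or between members chosen for high levels in these libraries, so the counts are a description. Some had few counts, such as Gm15592 with 8 in Synapsin-cre library 2 and 13 in NG2-creERTM library 3. Gm43844, an unspliced transcript inside St7 on the same strand, had 355 CPM in Synapsin-cre library 2 and 120 CPM in NG2-creERTM library 3, against 0.24 to 1.02 CPM in the other 7. Gm43843, inside Cttnbp2 on the same strand, had 195 CPM in Synapsin-cre library 2 and 4.91 CPM in NG2-creERTM library 3, against 0.90 to 14.7 CPM. Reads of these transcripts cannot be told apart from unspliced RNA of the gene around them. Gm20186, a long noncoding RNA that begins just before Lsm8 and runs away from it on the opposite strand, had 156 CPM in Synapsin-cre library 2 and 3.80 CPM in NG2-creERTM library 3, against 0.083 to 3.74 CPM. It therefore followed Lsm8, with a high level in Synapsin-cre library 2 alone.

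The share of reads opposite to the gene differed between the high libraries, most of all at Cttnbp2. Gm15594, annotated antisense to Cttnbp2 and lying within it, had 178 CPM in NG2-creERTM library 3 (7153 counts), against 0.19 CPM in Synapsin-cre library 2 and 0 to 0.54 CPM in the other 7 libraries. Of the reads on Cttnbp2 itself in NG2-creERTM library 3, 7.86% were on the strand opposite to the gene (5062 of them, beside 59353 on the gene's strand). In Synapsin-cre library 2, where Cttnbp2 was higher, 0.0888% were (96, beside 107969). For Met the opposite strand held 0.0421% of reads in Synapsin-cre library 2 and 0.0404% in NG2-creERTM library 3, and for Capza2 0.0708% and 0.0572%. For Asz1, with few reads, it held 3.38% in Synapsin-cre library 2 (95% Wilson interval 2.30 to 4.95%) and 1.06% in NG2-creERTM library 3 (0.69 to 1.61%).

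The rest of the MET pathway was examined in 35 genes listed for their known roles, of which 33 had enough counts to be tested. In each of the 3 comparisons between models, 0 of the 33 passed by the quasi-likelihood test of edgeR (Benjamini-Hochberg over 17947 genes), and 0% of those genes passed. At an unadjusted p under 0.05 there were 4 of 33 for NG2-creERTM minus Nestin-creERT2 (11.3% of all genes), 3 for Synapsin-cre minus Nestin-creERT2 (10.8%) and 3 for Synapsin-cre minus NG2-creERTM (12.8%). limma voom called 0 genes in each comparison, and DESeq2 called 623, 497 and 446, of which 3, 1 and 1 were in the list. The list's median log2 fold change was 0.08, 0.01 and 0.01 in that order, against 0.02, 0.13 and 0.08 over all genes tested. A p above the threshold does not show that levels were equal. Synapsin-cre and NG2-creERTM each pool 1 library high in Met with others that are low. Comparisons of models therefore do not separate levels that go with the run from levels that do not. The same holds for the ERK and Wnt targets below.

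Among ligand genes, Hgf had 13.2, 0.77 and 0.30 CPM in Synapsin-cre libraries 1, 2 and 3, against 11.0, 2.59 and 3.65 CPM in NG2-creERTM and 0.91, 2.36 and 1.29 CPM in Nestin-creERT2. The libraries with the most Met RNA were not those with the most Hgf, the gene of its ligand. Mst1r, the closest relative of Met, stayed between 0.12 and 1.28 CPM in all 9 libraries. Of proteins known to act with the receptor at the membrane, Cd44 had 116 CPM in Synapsin-cre library 2 and 165 CPM in NG2-creERTM library 3, within the 28.1 to 283 CPM of the other 7. Itga6, an integrin subunit for laminin, had 51.4 and 79.0 CPM in those libraries, within 38.5 to 119 CPM. The semaphorin receptor gene Plxnb1 had 246 and 145 CPM, within 117 to 356 CPM.

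Itgb4, the partner of Itga6 in the laminin receptor and a known partner of Met, was the member of the pathway that differed most between models. It had 27.0, 12.1 and 11.6 CPM in Synapsin-cre libraries 1, 2 and 3, against 20.6, 14.4 and 37.8 CPM in NG2-creERTM and 2.85, 0.94 and 2.93 CPM in Nestin-creERT2. All 6 libraries of Synapsin-cre and NG2-creERTM lay above all 3 of Nestin-creERT2, whether or not Met was high. The share of all genes that separate the models in this way was not counted, and Itgb4 was singled out from the list for its difference. The log2 fold change was 3.43 ± 0.64 (SE) for NG2-creERTM minus Nestin-creERT2, with an edgeR adjusted p of 0.217, and 2.91 ± 0.63 for Synapsin-cre minus Nestin-creERT2, with an edgeR adjusted p of 0.248. By edgeR with all 9 libraries Itgb4 thus passed in neither comparison. By DESeq2 with all 9 it passed in both. By edgeR it passed for NG2-creERTM minus Nestin-creERT2 in the fits of these 2 models alone and without Synapsin-cre library 1. DESeq2 also called Plcg1 and Ptpn2 for NG2-creERTM minus Nestin-creERT2, and Plcg1 for Synapsin-cre minus NG2-creERTM. Plcg1 had 91.1, 75.3 and 65.3 CPM in NG2-creERTM. It had 176, 145 and 152 CPM in Synapsin-cre and 153, 146 and 171 CPM in Nestin-creERT2.

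Of adaptors, Gab1, the main docking protein of the receptor, had 59.1, 287 and 207 CPM in Synapsin-cre libraries 1, 2 and 3, against 154, 177 and 222 CPM in NG2-creERTM and 87.0, 88.7 and 151 CPM in Nestin-creERT2. The highest levels were those of Synapsin-cre library 2 and NG2-creERTM library 3, next to Synapsin-cre library 3. The edgeR adjusted p was 0.632 for Synapsin-cre minus Nestin-creERT2 and 0.613 for NG2-creERTM minus Nestin-creERT2. Grb2 had 131 CPM in Synapsin-cre library 2 and 87.9 CPM in NG2-creERTM library 3, within 71.9 to 249 CPM. Of negative regulators, the ubiquitin ligase gene Cbl had 42.7 and 48.5 CPM, within 13.6 to 55.4 CPM. Lrig1, which lowers the level of several receptor kinases, had 51.1 and 59.7 CPM in those libraries, the lowest of the 9. The other 7 ranged from 65.8 to 356 CPM. Lrig1 had 165 and 65.8 CPM in Synapsin-cre libraries 1 and 3, and 113 and 245 CPM in NG2-creERTM libraries 1 and 2. The Nestin-creERT2 libraries, with 356, 254 and 341 CPM, were above all of these.

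Targets of ERK signalling, which receptors of this kind raise, were read in 15 genes, all tested, of which 0 passed in each comparison (1, 3 and 0 at an unadjusted p under 0.05 for NG2-creERTM minus Nestin-creERT2, Synapsin-cre minus Nestin-creERT2 and Synapsin-cre minus NG2-creERTM, where 11.3%, 10.8% and 12.8% of all genes were). Their median log2 fold change was 0.45, 0.26 and −0.16 in that order, against 0.02, 0.13 and 0.08 over all genes tested. Phlda1 had 37.7, 646 and 297 CPM in Synapsin-cre libraries 1, 2 and 3, against 159, 126 and 322 CPM in NG2-creERTM and 119, 51.6 and 63.6 CPM in Nestin-creERT2. Synapsin-cre library 2 and NG2-creERTM library 3 had the highest levels of this gene, which ERK activity induces, with Synapsin-cre library 3 close to NG2-creERTM library 3. Dusp6, a phosphatase that restrains ERK, had 188 CPM in Synapsin-cre library 2 and 239 CPM in NG2-creERTM library 3, above the 42.2 to 161 CPM of the other 7. Spry4, another brake of the pathway, had 141 CPM in Synapsin-cre library 2, the highest, and 103 CPM in NG2-creERTM library 3, a level shared with NG2-creERTM library 1. The transcription factor genes Etv4 and Etv5 had 211 and 86.7 CPM in Synapsin-cre library 2 and 119 and 109 CPM in NG2-creERTM library 3, within the 15.4 to 250 and 66.3 to 276 CPM of the other 7. Fosl1, an AP-1 subunit, had 4.30 and 3.42 CPM, within 0.71 to 10.3 CPM.

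Over the 15 targets the median log2 ratio against the other 8 was 0.58 in Synapsin-cre library 2 and 0.29 in NG2-creERTM library 3. It was 0.47 in Nestin-creERT2 library 1 and 0.44 in NG2-creERTM library 1, where Met had 20.0 and 9.26 CPM, and −1.68 in Synapsin-cre library 1. Synapsin-cre library 2 thus had the highest of the 9 medians and NG2-creERTM library 3 the fifth.

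**Figure D4:**
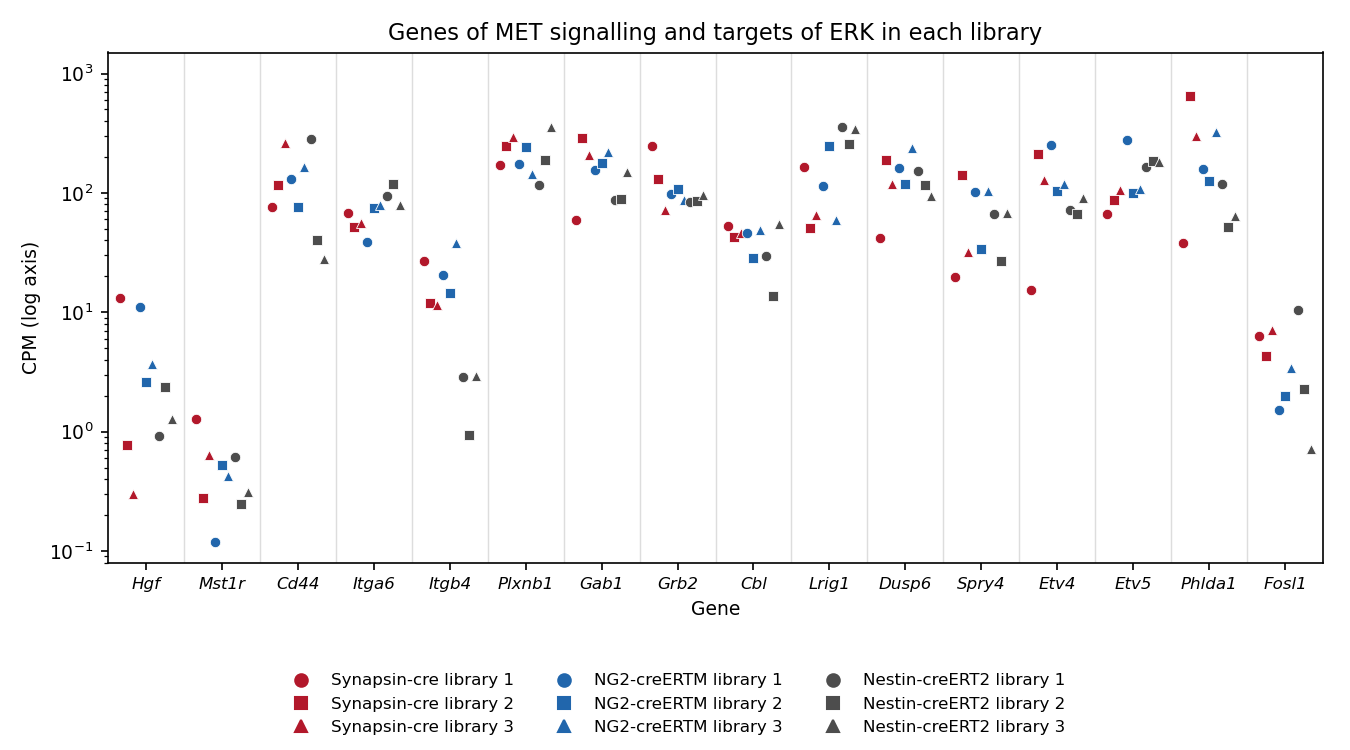
CPM (vertical log axis) of 10 genes of MET signalling and 6 targets of ERK in each library, with colour for the model and marker shape for the library. Phlda1 reaches 646 CPM in Synapsin-cre library 2, Itgb4 is below 3 CPM in the Nestin-creERT2 libraries and above 11 CPM in the other 6, and Hgf lies below 14 CPM in all 9.

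Targets of canonical Wnt signalling, listed because Wnt2 belongs to the run, numbered 10, all tested, and 0 passed in each comparison (3, 3 and 1 at an unadjusted p under 0.05, in the same order, where 11.3%, 10.8% and 12.8% of all genes were). Their median log2 fold change was −0.19, 0.48 and 0.43 in that order, against 0.02, 0.13 and 0.08 over all genes. Over the 10 targets the median log2 ratio against the other 8 was 0.59 in Synapsin-cre library 2, the highest of the 9 libraries, and −0.35 in NG2-creERTM library 3, against at most 0.19 in the other 7. Znrf3, a ubiquitin ligase that removes Wnt receptors, had 51.6 CPM in Synapsin-cre library 2 and 20.7 CPM in NG2-creERTM library 3, against 16.9 to 36.2 CPM in the other 7. Sp5 and Notum, at low levels, were also highest in Synapsin-cre library 2, with 1.93 and 1.38 CPM, against 0.071 to 1.03 and 0.34 to 1.28 CPM. Axin2, the most general target, had 45.0 CPM in Synapsin-cre library 2, where Wnt2 was highest, and 23.4 CPM in NG2-creERTM library 3, within the 16.2 to 58.1 CPM of the other 7 libraries. Lef1 had 9.30 and 3.0 CPM in those libraries, within 1.47 to 12.6 CPM. Nkd1, an inhibitor of the pathway, had 12.3, 20.1 and 11.9 CPM in Synapsin-cre libraries 1, 2 and 3, against 11.2, 50.7 and 22.9 CPM in NG2-creERTM and 115, 171 and 153 CPM in Nestin-creERT2. Its log2 fold change for Synapsin-cre minus Nestin-creERT2 was −3.31 ± 0.55 (SE), with an edgeR adjusted p of 0.163. It passed by edgeR without Synapsin-cre library 1 and with no filter, and by DESeq2, which also called Lef1 in that comparison and Nkd1 for NG2-creERTM minus Nestin-creERT2. Of 12 tested partners and paralogs of the members and of 14 tested flanking genes, 0 passed in each comparison by edgeR, while DESeq2 called Tes for NG2-creERTM minus Nestin-creERT2 and Cped1 for Synapsin-cre minus NG2-creERTM.

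Outside the run, the genes whose levels were most like those of Met were sought among 13290 protein-coding genes with a mean of at least 2 CPM, by Pearson's r of log2 (CPM + 0.5) over the 9 libraries. The libraries share models and the values of Met fall into 2 separate ranges, so these are descriptions with no p. Syt4, a synaptotagmin of secretory vesicles, had r = 0.93 (Spearman's rho 0.75), with 354 CPM in Synapsin-cre library 2 and 384 CPM in NG2-creERTM library 3, against 19.1 to 90.3 CPM in the other 7 libraries. Ltbp1, which binds latent TGF-beta in the matrix, had r = 0.93 (rho 0.93), with 279 CPM in Synapsin-cre library 2 and 115 CPM in NG2-creERTM library 3, against 7.27 to 42.3 CPM. Cdk19, a kinase of the Mediator complex, had r = 0.93, the transcription factor gene Maf r = 0.92 and the tetraspanin gene Tspan15 r = 0.91. Without the 2 high libraries, over 7 libraries, r was 0.60 for Syt4, 0.84 for Ltbp1, 0.56 for Cdk19, 0.32 for Maf and 0.76 for Tspan15.

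In the opposite direction the vesicle gene Syt9 had r = −0.99 (rho −0.88), with 1.96 CPM in Synapsin-cre library 2 and 3.25 CPM in NG2-creERTM library 3, against 13.8 to 27.4 CPM in the other 7, and r = −0.88 without the 2 libraries. Mrpl49, a protein of the mitochondrial ribosome, had r = −0.98, with 17.0 and 19.5 CPM in those libraries against 27.4 to 38.0 CPM. Bri3bp had r = −0.94, with 50.5 and 49.9 CPM against 82.5 to 127 CPM. Without the 2 libraries r was −0.85 for Mrpl49 and −0.49 for Bri3bp. Each of these 3 genes had its lowest levels in the 2 libraries in which Met was high. This follows largely from the choice of genes by r with Met, which is a description only. None of the 8 genes named here lies on chromosome 6. Among the members, r with Met over the 9 libraries ran from 0.66 for Ankrd7 and 0.69 for Lsm8 to 0.98 for Cftr.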

How the data were processed

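The deposited files hold raw read counts per gene and library, laid out as STAR writes them (1 unstranded column, 1 per strand). STAR, HTSeq and mm10 are named per the submitters' processing notes, with no versions or roles. Per the labels a Qiagen RNeasy kit gave the RNA. The column of the strand with most reads was used here, since the other held 3.25 to 3.64% of reads in genes. The 4 summary lines were left out, and reads not counted to a gene made up 17.9 to 27.3%. Of 46517 identifiers 46005 matched GENCODE vM21 (GRCm38).

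CPM were computed with TMM size factors. Ratios set 1 library against the median of the other 8 with 0.5 CPM added. Models were compared in edgeR 4.0.16 (R 4.3.3) with filterByExpr and a 2-sided quasi-likelihood test of all 9 libraries, Benjamini-Hochberg adjusted over 17947 genes with a threshold of 0.05. The edgeR test was also run on simulated counts, with large changes planted in every NG2-creERTM library and a shared spread for all genes. Changes in a single library, like those of the run, were not simulated. Members, lists and markers were chosen with earlier results of these data known. Named genes were the members, their neighbours, a set panel of pathway genes and, by r with Met, the 5 highest and 3 lowest. Alternatives were other size factors, filters, DESeq2 1.42.0, limma 3.58.1 voom, unstranded counts, 2 models only and leaving out each library. Of the genes of chromosome 6 counted outside the run, 1 is not reported here by name.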

Additional observations from a re-analysis of the deposited data

Results flagged for a closer look

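In NG2-creERTM library 3, 7.86% of the reads on Cttnbp2 were on the strand opposite to the gene, which the comparisons above do not use. Over all genes of that library the opposite strand held 3.25% of reads, and for Cttnbp2 it held 0.0888% in Synapsin-cre library 2. The annotated antisense transcript within Cttnbp2, Gm15594, had 178 CPM in NG2-creERTM library 3 and 0.19 CPM in Synapsin-cre library 2.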

How the results depend on the processing

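The 9 genes' median log2 ratio of 5.57 in Synapsin-cre library 2 became 5.28 with 2 CPM added and 5.33 to 5.65 with 1 other library left out. In NG2-creERTM library 3 the median of 5.87 became 4.66 with 2 CPM added and 5.86 to 5.88 with 1 library left out. Of 234 values of single members under the alternatives 209 moved by less than the SD between the Nestin-creERT2 libraries. The other 25 moved by more, 16 of them for Lsm8 with 1 library left out. That SD is wide for some genes. Wnt2 in Synapsin-cre library 2 was counted among the 209, though its log2 ratio went from 7.77 to 6.55 with 2 CPM added. edgeR called 0 genes in each comparison. For NG2-creERTM minus Nestin-creERT2, Synapsin-cre minus Nestin-creERT2 and Synapsin-cre minus NG2-creERTM it called 12, 12 and 0 with no filter, 0, 1 and 0 with unstranded counts, and 237, 5 and 0 with 2 models only. DESeq2 called 623, 497 and 446, of which 3, 1 and 1 were in the MET pathway list, and 2 models only gave 1 there (Itgb4). Leaving out 1 library gave 0 to 124, 0 to 273 and 0 to 1 genes, with 0 to 1, 0 and 0 in that list. The upper ends came without Synapsin-cre library 1, and NG2-creERTM library 2 or 3 left out gave at most 2. The cause was not tested. limma voom, a filter at 1 CPM in 3 libraries and other size factors gave 0. No paired analysis was possible because the labels give no replicate numbers that the models share. Genes at 0 to 4 counts in most libraries, such as Asz1, have ratios that depend on the value added.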

Other observations

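Beyond the run, chromosome 6 held a few other genes at very high levels in Synapsin-cre library 2, named here after their values were seen. Of 657 protein-coding genes of the chromosome outside the run 5 were at least 16-fold above their median in the other 8 libraries, against 25 of 12633 on other chromosomes. Synapsin-cre library 3, in which the run was not raised, had 15 of 657 on chromosome 6 and 10 of 12633 elsewhere. Synapsin-cre library 1 had 17 of 657 and 289 of 12633. In Synapsin-cre library 2, Dennd2a, a regulator of Rab proteins 22.0 Mb after the start of Met, had 7850 CPM, against 96.9 to 211 CPM in the other 8. The values of the genes that follow are also those of Synapsin-cre library 2. Its neighbours Mkrn1 and Adck2 had 141 and 10.2 CPM, against 68.2 to 129 and 7.54 to 21.6 CPM. Tcaf1, a partner of TRP channels 25.2 Mb after Met, had 4860 CPM, against 152 to 323 CPM. Next to it Tcaf2 had 5.55 CPM, against 1.66 to 13.8 CPM. On its other side Arhgef5 had 20.9 CPM, above the 2.72 to 9.20 CPM of the other 8. Cep41, a centrosome gene 13.2 Mb after Met, had 228 CPM, against 8.12 to 25.7 CPM, and Hoxa10 had 15.3 CPM, against 0 to 7.01 CPM. Hoxa9, beside Hoxa10, had 12.2 CPM, against 0 to 7.70 CPM, and was above the other 8 libraries, as Mkrn1 was.

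In NG2-creERTM library 3 the same search gave 1 of 657 genes on chromosome 6, Aoc1, a diamine oxidase with 23.1 CPM against 0 to 1.80 CPM, and 28 of 12633 elsewhere. The large levels of Dennd2a, Tcaf1 and Cep41 were thus seen in Synapsin-cre library 2 and not in the other library with the run around Met.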
